A study of Mus musculus with 12 samples.

Results

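The genes described are the class II olfactory receptors of the chromosome 9 clusters, measured in the main olfactory epithelium (MOE) of H2be-KO and WT mice. They were chosen by name only, as array probe sets (groups of probes read out as 1 value) whose annotated symbol is a receptor name from Olfr828 to Olfr985, with pseudogene symbols left out. This gave 109 probe sets of the 1119 on the array that carry a receptor symbol and of 28944 probe sets in all. Of the 109, 105 carried 1 symbol, and RefSeq places all 105 on chromosome 9. The other 4 each carried several symbols of the same range and cannot be assigned to 1 receptor. The members fall into a first cluster of 30 probe sets (Olfr828 to Olfr873) and a second cluster of 79 (Olfr874 to Olfr985), with 159 other protein-coding genes between them. RefSeq lists 103 of the 105 genes as protein-coding, Olfr908 as a transcribed pseudogene and Olfr915 as an RNA of another kind. The older MOR names, which group receptors into families by the likeness of their proteins, put the 105 genes in 26 families.

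Olfactory receptors are G protein-coupled receptors that bind odorants at the cilia of olfactory sensory neurons. Each mature neuron expresses 1 receptor allele out of a very large family. In whole tissue the level of a receptor transcript thus depends on how many neurons express it and on how much of it each makes. The number of such neurons depends on how often the receptor is chosen and on how long those neurons live. Receptor genes have a coding sequence without introns and lie in tandem clusters, where recently duplicated neighbours are often nearly alike. Class II receptors are the larger of the classes found in land vertebrates.

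H2be encodes a histone H2B variant of olfactory neurons that is made independently of DNA replication. H2be-KO mice carry an allele in which the H2be coding sequence is replaced by Gap43-mCherry, a membrane-bound fluorescent reporter, and come from founders crossed to C57Bl/6 mice, while WT mice carry the intact gene. All mice were 6 months old and of both sexes, and there were 6 arrays per genotype, each of RNA from a pair of animals, with no sex given per array. The allele is carried by every cell, the reporter is present only in H2be-KO, and neurons were not separated from the other cells of the tissue. From these arrays, a change in the number of neurons expressing a receptor and a change in its RNA per neuron therefore cannot be told apart. The labels do not say that the arrays came from separate litters, so the p-values measure the spread between these pooled samples.

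The signals are log2 values, on which a difference of 1 is a 2-fold change, and values near 5 lie close to background. Array medians were 7.84 to 7.90 and arrays correlated with each other at 0.951 to 0.985. Omp, the marker of mature olfactory neurons, read 12.9 in both genotypes. None of the 17 mature neuron markers differed at an unadjusted limma p under 0.05, where 3.78% of all probe sets tested were higher and 1.77% lower. So few markers without a call do not show that the share of mature neurons was unchanged. Their list mean was 11.4 to 11.7 over the H2be-KO arrays and 11.5 to 11.6 over the WT arrays. For H2be itself the signal was 11.65 ± 0.12 in H2be-KO arrays and 11.89 ± 0.17 in WT arrays (means with SD, n = 6 each), and whether its probes lie inside the replaced sequence was not analysed here. H2be-KO replicates 1 and 6 held the enamel gene Amelx at 11.87 and 11.66, against 5.34 to 6.03 in the WT arrays. Of 6 enamel genes, 0 were called higher and 1 lower in H2be-KO, beside the same 3.78% and 1.77% of all probe sets. The part of that tissue in the receptor values was addressed only by leaving out both arrays.

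The first question was how bright these receptors are. Of the 109 probe sets, 6 had a mean signal of 5 or less and were not tested, 15 lay between 5 and 6, 35 between 6 and 7, 39 between 7 and 8, and 14 between 8 and 9. The 103 that were tested had a median signal of 7.01, from 5.04 to 8.69, which was below the median of 7.62 over the 986 other receptors tested. Probe sets differ in their affinity, so these are levels of probe sets and give no order of transcript abundance between receptors.

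None of the 5 brightest members was called. Olfr933, a MOR171 receptor, was the brightest, from 8.56 through a median of 8.72 to 9.13 in H2be-KO and from 8.44 through 8.58 to 8.79 in WT (exact permutation p = 0.121, n = 6 each). Olfr921 read 8.75 against 8.59 (exact permutation p = 0.437), Olfr835 8.79 against 8.54 (exact permutation p = 0.149), and Olfr898 8.70 against 8.60 (exact permutation p = 0.528, n = 6 each). The probe set shared by Olfr938, Olfr955 and Olfr952 read 8.68 against 8.54 (exact permutation p = 0.264, n = 6 each). All 5 had overlapping groups, and the higher mean was that of H2be-KO in all 5.

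At the dim end, Olfr857 had a mean of 5.04 in both genotypes, Olfr834 had 5.09 in H2be-KO and 4.99 in WT, and Olfr871 had 5.44 and 5.20. The widest spread between arrays was seen for Olfr851, at 5.98 ± 1.04 in H2be-KO and 6.04 ± 0.45 in WT, and for Olfr877, at 5.68 ± 0.76 and 5.88 ± 0.81 (SD, n = 6 each). In both of these the genotypes differed by far less than the arrays within a genotype. Over the 103 members, the residual spread fell as the signal rose (Pearson r = -0.34 across genes, which share arrays and are not independent replicates).

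The main comparison asked which of these receptors differed after loss of H2be. At an unadjusted limma p under 0.05, 8 of the 103 tested members were higher in H2be-KO (7.77%) and 1 was lower (0.971%), against 3.78% higher and 1.77% lower over all 28151 probe sets tested. Among the 986 other receptors tested, 4.26% were higher and 0.710% lower. By chromosome, the share of receptors called higher was 10.7% of 56 on chromosome 19, 9.76% of 41 on chromosome 17 and 7.63% of 118 on chromosome 9. The 8 were Olfr974, Olfr919, Olfr968 and Olfr935 of the MOR171 family, Olfr867, Olfr849, Olfr963 and Olfr983, and the 1 was Olfr982. An exact permutation test of each probe set called 7 higher and 1 lower, with 3.98% and 2.03% of all probe sets. None of the 103 had all 6 arrays of one genotype beyond all 6 of the other, which 0.0888% of all probe sets showed in each direction. No member passed after the Benjamini-Hochberg adjustment over all probe sets, the lowest adjusted limma p being 0.753, and no probe set of the array did so either. The calls that follow are therefore unadjusted.

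The counts depended on single arrays. Without H2be-KO replicate 1, 3 or 5 the number higher was 5, where 1.82% to 4.06% of all probe sets were called higher, and without H2be-KO replicate 4 it was 19 (7.94% of all). With the replicate number as a block in the model it was 17 (7.24% of all), and without both Amelx-high arrays it was 6 (2.58% of all). With array weights 10 members were higher and 2 lower, where 9.57% and 4.99% of all probe sets were called, so that the share of members called higher was then near the background.

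**Figure D1:**
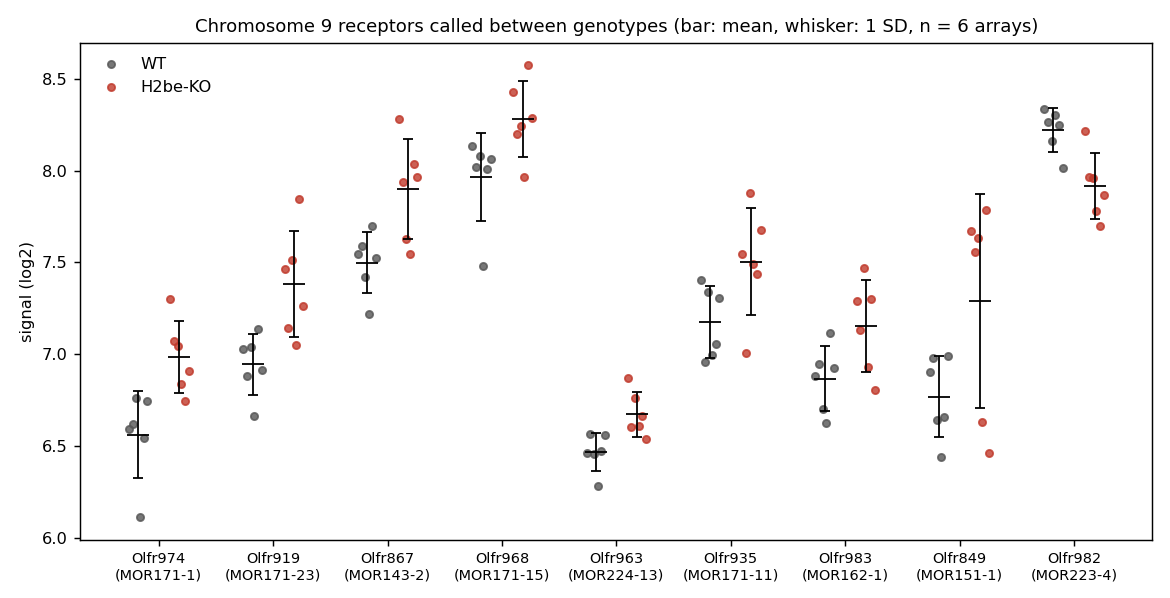
Signal (log2) of the 9 called chromosome 9 receptors in each array, grey for WT and red for H2be-KO, with the mean as a bar and 1 SD as whiskers (n = 6 arrays each). For 8 receptors the H2be-KO mean is the higher, for Olfr982 the lower, and in every one the groups overlap in at least 1 array.

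Olfr974 (MOR171-1) had the smallest p. Its signal ran from 6.74 through a median of 6.98 to 7.30 in H2be-KO and from 6.11 through 6.61 to 6.76 in WT. All but 1 H2be-KO array lay above every WT array, and the low end of WT was replicate 4. The means were 6.98 ± 0.20 and 6.56 ± 0.24 (SD, n = 6 each), a difference of 0.42 with a standard error of 0.12, which is 1.34-fold (limma p = 0.0032, exact permutation p = 0.0043). The first 50 coding bases of Olfr974 (chr9:39942262-39942311, plus strand, RefSeq on GRCm38.p6) are set here against those of Olfr933 (chr9:38975678-38975727, plus strand). Olfr933, the brightest member and of the same family, was the closest match to Olfr974 in this stretch among the 61 members compared. Bases that differ between the pair are in capitals.
Olfr974: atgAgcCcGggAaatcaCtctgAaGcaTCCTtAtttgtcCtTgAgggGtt
Olfr933: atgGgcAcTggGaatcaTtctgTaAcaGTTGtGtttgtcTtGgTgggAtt
In this stretch 34 of 50 bases are alike (68%), and the difference between the genotypes was 0.42 for Olfr974 and 0.17 for Olfr933. Over all pairs of the 20 MOR171 genes compared, the share of bases alike had a median of 52%, from 16% to 100%.

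Olfr919 (MOR171-23) ran from 7.05 through 7.36 to 7.85 in H2be-KO and from 6.67 through 6.97 to 7.14 in WT. Its means of 7.38 ± 0.29 and 6.94 ± 0.17 differed by 0.44 with a standard error of 0.13 (1.35-fold, limma p = 0.0038, exact permutation p = 0.0043, n = 6 each), and 5 of 6 H2be-KO arrays exceeded every WT array. Olfr935 (MOR171-11) ran from 7.01 through 7.52 to 7.88 in H2be-KO and from 6.96 through 7.18 to 7.41 in WT. Here too 5 of 6 H2be-KO arrays were above every WT array, and the difference was 0.33 (1.25-fold, exact permutation p = 0.0433, n = 6 each). The Olfr935 call was lost in 6 of 25 alternatives, 5 of them without a single array, H2be-KO replicate 3 or 6 or WT replicate 2, 4 or 5, where its limma p was 0.0522 to 0.0681, and the other without both Amelx-high arrays, where it was 0.102.

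Olfr968 (MOR171-15) was the brightest of the receptors called higher. It ran from 7.96 through 8.27 to 8.57 in H2be-KO and from 7.48 through 8.04 to 8.14 in WT, a difference of 0.32 between means of 8.28 ± 0.21 and 7.96 ± 0.24 (1.25-fold, exact permutation p = 0.0195, n = 6 each). Of the 6 H2be-KO arrays, 5 lay above every WT array, and WT replicate 4 lay far below the rest of its group. Without H2be-KO replicate 5 the limma p of Olfr968 was 0.0545, and without both Amelx-high arrays 0.0774. Olfr968 (chr9:39772749-39772798, minus strand) and Olfr972 (MOR171-17, chr9:39873277-39873326, plus strand) start with the same 50 coding bases, shown because probes in such a stretch cannot separate the pair.
Olfr968: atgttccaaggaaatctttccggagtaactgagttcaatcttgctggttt
Olfr972: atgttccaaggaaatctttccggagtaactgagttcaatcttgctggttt
Olfr972 also differed by 0.32, with a wider spread between arrays (exact permutation p = 0.141, n = 6 each). How many probes the 2 probe sets have in common was not analysed here, and which of the genes a signal came from is uncertain.

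The receptors called in the first cluster were Olfr867 and Olfr849. Olfr867 (MOR143-2) ran from 7.55 through 7.95 to 8.28 in H2be-KO and from 7.22 through 7.54 to 7.70 in WT. Its means were 7.90 ± 0.27 and 7.50 ± 0.16, a difference of 0.40 with a standard error of 0.12 (1.32-fold, limma p = 0.0053, exact permutation p = 0.0152, n = 6 each). In 4 of 6 H2be-KO arrays it was above every WT array, and the remaining H2be-KO arrays, replicates 3 and 4, lay within the WT range. Olfr867 is the only member of its MOR family among these genes.

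Olfr849 (MOR151-1) had the largest difference of all tested members, 0.52 with a standard error of 0.22 (1.44-fold). Its signal ran from 6.46 through 7.60 to 7.79 in H2be-KO and from 6.44 through 6.78 to 6.99 in WT. The H2be-KO arrays fell apart into replicates 1, 2, 3 and 5, at 7.56 to 7.79, and replicates 4 and 6, at 6.63 and 6.46, inside the WT range. The means were 7.29 ± 0.58 and 6.77 ± 0.22 (limma p = 0.0307), and the exact permutation p was 0.0606 (n = 6 each), so the call rested on limma. It was also lost without any of 7 single arrays, H2be-KO replicates 1, 2, 3 and 5 and WT replicates 3, 4 and 5, at a limma p of 0.053 to 0.0756.

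The starts of Olfr867 (chr9:20055412-20055461, minus strand) and Olfr849 (chr9:19440915-19440964, plus strand) are printed as the pair called in the first cluster, with differing bases in capitals.
Olfr867: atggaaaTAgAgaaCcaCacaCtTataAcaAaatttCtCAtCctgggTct
Olfr849: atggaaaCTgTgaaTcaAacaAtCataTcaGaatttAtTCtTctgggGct
They are alike in 36 of 50 bases and belong to different MOR families.

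In the second cluster, outside MOR171, Olfr963 and Olfr983 were higher. Olfr963 (MOR224-13) ran from 6.54 through 6.64 to 6.87 in H2be-KO and from 6.28 through 6.47 to 6.57 in WT. Its difference of 0.21 was the smallest among the called receptors and its spread was narrow, at 6.67 ± 0.12 against 6.47 ± 0.10 (1.15-fold, exact permutation p = 0.0065, n = 6 each), with 5 of 6 H2be-KO arrays above every WT array. The limma p of Olfr963 was 0.0604 without H2be-KO replicate 1, 0.0555 without both Amelx-high arrays and 0.109 with trended and robust moderation.

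The start of Olfr963 (chr9:39669059-39669108, plus strand) is shown with that of its near neighbour Olfr961 (MOR224-5, chr9:39646728-39646777, plus strand), from which it differs in 1 of 50 bases, in capitals.
Olfr963: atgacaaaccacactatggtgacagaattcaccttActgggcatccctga
Olfr961: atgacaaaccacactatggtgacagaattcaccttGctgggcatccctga
Olfr961 was much brighter, with medians of 8.21 in H2be-KO and 8.20 in WT, and differed by 0.07. The pair are close in sequence, and of them only Olfr963 was called; the difference between their changes was not tested. Among the 61 members whose RefSeq gene model begins at the start codon, 20 had another member alike in at least 45 of these 50 bases, compared without gaps.

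Olfr983 (MOR162-1) ran from 6.81 through 7.21 to 7.47 in H2be-KO and from 6.63 through 6.90 to 7.12 in WT. The difference was 0.29 between means of 7.15 ± 0.25 and 6.87 ± 0.18 (1.22-fold, exact permutation p = 0.0476, n = 6 each), and 4 of 6 H2be-KO arrays lay above every WT array. Its call was lost in 6 of 25 alternatives, namely with array weights and without H2be-KO replicate 1, 3 or 5 or WT replicate 3 or 4, at a limma p of 0.0599 to 0.0749. Both many-symbol probe sets that list Olfr983 with other MOR162 receptors read higher in H2be-KO, by 0.16 and 0.19, and were not called.

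Olfr982 (MOR223-4), the gene before Olfr983, was the receptor called lower. It ran from 7.70 through 7.91 to 8.22 in H2be-KO and from 8.01 through 8.26 to 8.34 in WT, and in 5 of 6 H2be-KO arrays it was below the whole WT range. The means were 7.92 ± 0.18 and 8.22 ± 0.12, so that the log2 signal fell by 0.31 (standard error 0.095, limma p = 0.0058, exact permutation p = 0.0108, n = 6 each). Its other neighbour, Olfr981 of the same MOR223 family, was also lower by mean, 7.25 ± 0.18 against 7.42 ± 0.19, without passing (exact permutation p = 0.141, n = 6 each). Adjacent receptors at this end of the cluster thus included calls in opposite directions.

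The calls for Olfr974, Olfr919, Olfr867 and Olfr982 were kept in all 25 alternatives of the processing. Over these, the difference ran from 0.33 to 0.47 for Olfr974, from 0.34 to 0.50 for Olfr919, from 0.29 to 0.47 for Olfr867 and from -0.37 to -0.26 for Olfr982.

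Across the whole set, most receptors read slightly higher in H2be-KO without passing singly. Of the 103 tested, 82 (79.6%) had a positive difference, against 56.2% of all probe sets tested, 64.4% of the 986 other receptors and 50.9% of the 17915 probe sets of other genes in the same signal range. The median difference was 0.13, with quartiles of 0.03 and 0.20, and the range was -0.31 to 0.52. The median was 0.05 over the other receptors and 0.02 over all probe sets. Differences above 0.1 were found in 62 members and above 0.25 in 18, while 10 were below -0.1 and 1 below -0.25. Of the 82 positive members, 74 were not called, and the median standard error of a difference was 0.146 over the 103.

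These receptors share arrays and are not replicates, and the shift is small beside the arrays. The mean over the 103 tested members was 7.06 ± 0.18 in H2be-KO, from 6.83 to 7.26, and 6.95 ± 0.12 in WT, from 6.75 to 7.08 (SD, n = 6 each). H2be-KO replicates 1, 3 and 5 lay above every WT array, replicates 2, 4 and 6 within the WT range, and WT replicate 4 was the lowest of all. With each array's mean over all tested probe sets subtracted, the values were -0.99 ± 0.16 and -1.08 ± 0.12, still overlapping. H2be-KO replicates 1 and 3 were also high, and WT replicate 4 the lowest, within each cluster and among the receptors outside the set, whose means were 7.73 ± 0.11 and 7.68 ± 0.08. The median difference of 0.13 was smaller than 0.171, the SD within a genotype of each array's median over these receptors. That SD is a spread between single arrays and not the error of a difference between groups. The median difference was 0.087 without WT replicate 4 and 0.177 without H2be-KO replicate 4, and 0.079 with array weights.

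**Figure D2:**
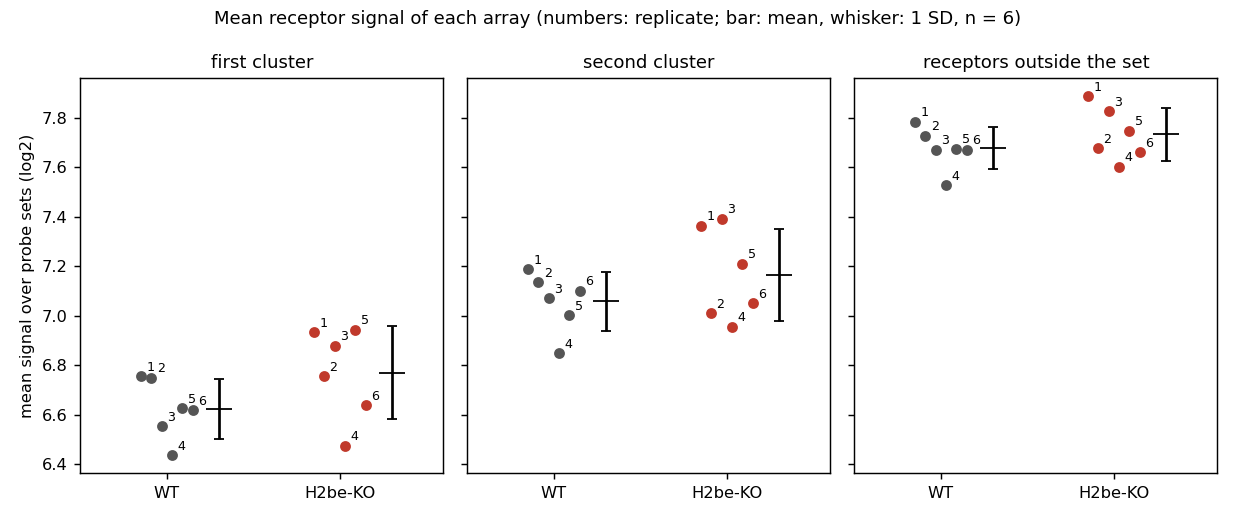
Mean signal (log2) of each array over the tested receptors of the first cluster, the second cluster and the receptors outside the set, with the replicate number beside each point, grey for WT and red for H2be-KO (bar: mean, whiskers: 1 SD, n = 6). The genotypes overlap in each panel, and H2be-KO replicates 1 and 3 and WT replicate 4 keep their high and low places among the panels.

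Both clusters showed this shift, and the difference between them was not tested. In the first, 20 of 26 tested members had a positive difference, with a median of 0.15 and 2 called higher. In the second, 62 of 77 were positive, with a median of 0.13, 6 called higher and 1 lower. The shares called higher were 7.69% and 7.79%, against 3.78% of all probe sets tested and 4.26% of the receptors outside the set. In those 2 backgrounds 1.77% and 0.710% were called lower, and 56.2% and 64.4% had a positive difference. The other 19 receptors tested on chromosome 9, with numbers outside the range, had a median of 0.08 and 13 positive differences. Among 13 chromosomes with at least 10 receptors tested, chromosome 9 had the second highest median, 0.12 over 118 receptors, next to 0.12 over the 12 on chromosome 13, and chromosome 4 the lowest, -0.01.

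The differences were similar in size over the range of brightness. The median was 0.11 among the 34 dimmest members, 0.15 among the next 34 and 0.13 among the 35 brightest, where other receptors in the same signal ranges had medians of 0.07, 0.06 and 0.06. Of the 8 receptors called higher, 1 was among the dimmest, 5 in the middle and 2 among the brightest, and Olfr982 was among the brightest. These are 2.94%, 14.7% and 5.71% of the members, against 5.32%, 4.66% and 4.35% of other receptors in the same signal ranges. The shares over all probe sets tested were 3.78% higher and 1.77% lower. Across the 103 members the difference correlated with the mean signal at r = 0.11.

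**Figure D3:**
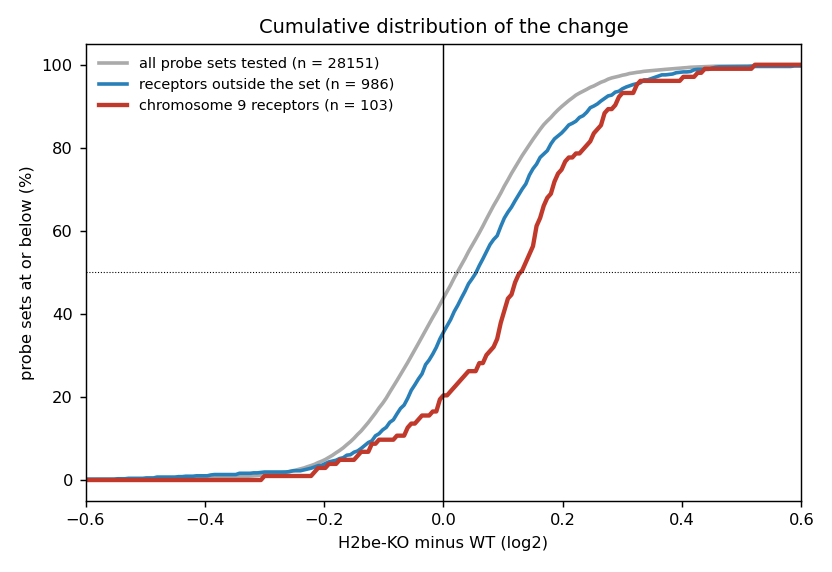
Cumulative share of probe sets (percent) at or below each difference (H2be-KO minus WT, log2) for the 103 chromosome 9 receptors, the 986 receptors outside the set and all 28151 probe sets tested. The curve of the chromosome 9 receptors crosses 50% at 0.13, to the right of the other receptors at 0.05 and of all probe sets at 0.02.

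By family, MOR171 was the largest, with 24 of its 25 members here tested. Of these 24, 4 were called higher and 0 lower, and 23 had a positive difference, Olfr967 at -0.01 being the exception. Their median was 0.18, from -0.01 to 0.44, against 0.10 over the 79 other members, of which 4 were higher and 1 lower. Over all probe sets tested, 3.78% were called higher and 1.77% lower, and 56.2% were positive. The family was singled out after its values had been seen, so these figures are a description. Per array, MOR171 averaged 7.24 ± 0.20 in H2be-KO, from 6.99 to 7.43, and 7.04 ± 0.18 in WT, from 6.72 to 7.25 (SD, n = 6 each), with overlap between the genotypes.

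MOR171 receptors outside the number range were read on the same arrays, so they are a further description and not an independent check. All 6 that were tested had a positive difference, with a median of 0.28. Over all 986 receptors tested outside the set, 64.4% were positive and the median was 0.05. Olfr1537, on chromosome 9, was called higher, as were 3.78% of all probe sets. It read 6.87 ± 0.24 in H2be-KO and 6.50 ± 0.22 in WT, which differ by 0.36 (standard error 0.12). The remaining 5, Olfr27, Olfr44, Olfr146 and Olfr151 on chromosome 9 and Olfr1037 on chromosome 2, were not called. With these 6 and the 24 chromosome 9 members pooled, MOR171 had a median of 0.19 over 30 probe sets. Among 23 MOR families with at least 10 probe sets tested it came next after MOR283, at 0.21, and MOR31 had the lowest median, -0.05. The rank of MOR171 reuses the values by which the family was singled out.

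Other families were smaller. MOR162 and MOR224 each had 8 tested members with 1 called higher, Olfr983 and Olfr963, and medians of 0.05 and 0.07. MOR165 had 7 tested members, none called, at a median of 0.03. MOR223 held both directions, with Olfr982 called lower and Olfr980 the most positive at 0.29 (exact permutation p = 0.0974). All 3 MOR149 receptors were positive, with a median of 0.26 and none called, the smallest p being that of Olfr828 (exact permutation p = 0.0758). Of all probe sets tested, 3.78% were called higher and 1.77% lower, and counts over so few members cannot be told apart from those shares.

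**Figure D4:**
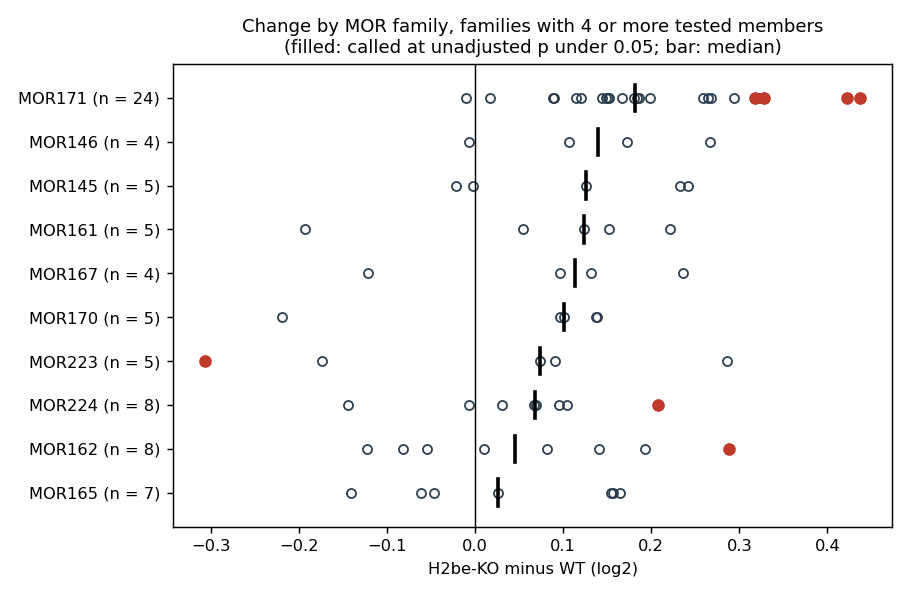
Difference (H2be-KO minus WT, log2) of each tested member in the MOR families with at least 4 tested members, with the family median as a bar and called receptors filled in red. MOR171 has all but 1 of its 24 points above 0 and a median of 0.18, and the only called receptor left of 0 is Olfr982 of MOR223.

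Position within the clusters was examined along the RefSeq gene order. Over 97 adjacent pairs of tested members, the differences correlated weakly (Pearson r = 0.10, Spearman rho = 0.13 across pairs that share genes and arrays), and both were positive in 62 pairs. With 79.6% of the tested members positive, most pairs would both be positive whatever the gene order. The longest stretch of positive differences ran over 27 tested members, from Olfr918 to Olfr965. MOR171 genes lie mostly together in the second cluster, and 16 of the 27 belong to that family.

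**Figure D5:**
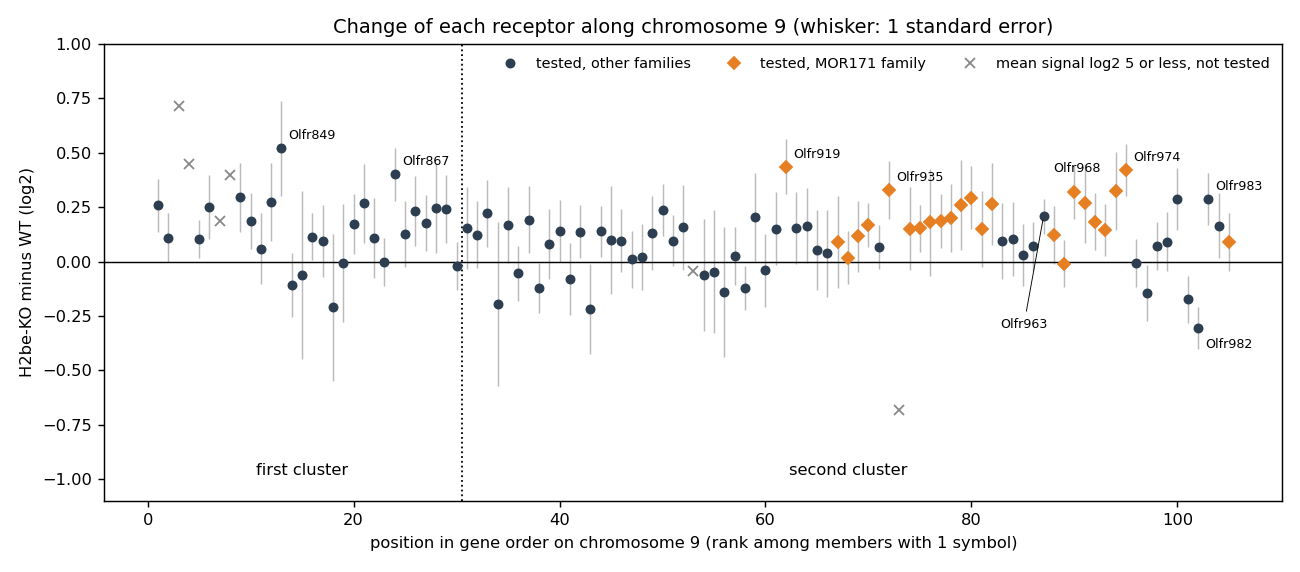
Difference (H2be-KO minus WT, log2) of each member with 1 symbol against its rank in gene order on chromosome 9, with 1 standard error as whiskers, MOR171 receptors as orange diamonds and untested dim members as crosses. Called receptors are named, 2 higher in the first cluster and 6 higher and 1 lower in the second, and their grouping by position was not tested.

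The 6 members not tested for their low signal were Olfr830, Olfr832, Olfr836, Olfr837, Olfr908 and Olfr936. Olfr830 (MOR152-1) read 5.28 ± 0.29 in H2be-KO and 4.57 ± 0.52 in WT, and Olfr936 (MOR171-37) read 4.22 ± 0.65 and 4.90 ± 0.19 (SD, n = 6 each). These differences of 0.72 and -0.68 were the largest in each direction over all 109 probe sets, with exact permutation p-values of 0.0152 and 0.0433, but they lie at background, where arrays resolve levels poorly. The transcribed pseudogene Olfr908 read 4.63 ± 0.31 and 4.67 ± 0.21.

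Genes that receptors depend on were read beside them. Receptor export and odour transduction genes, which carry receptors to the cilia and pass on their signal, had 0 of 15 called in either direction, with a median difference of 0.03. Factors that act in receptor choice, such as Lhx2, Ldb1 and Kdm1a, had 0 of 16 called and a median of 0.03. Sustentacular cell markers had 0 of 7 called and respiratory and gland markers 0 of 8. Immature neuron markers had a median of 0.10, with 6 of 10 positive. The 1 called was Gap43, at 10.24 in H2be-KO against 9.99 in WT, a gene whose first codons the reporter carries. Neuronal progenitor markers had a median of 0.07, with 5 of 7 positive. Of these, 2 were called higher, Gadd45g and Top2a (exact permutation p = 0.0801 for Top2a). Horizontal basal cell markers had a median of -0.19, with 0 of 6 positive and 1 called lower. Over all probe sets tested, 3.78% were called higher and 1.77% lower. The part of these cell types in the receptor differences was not tested. With the mean of the mature neuron markers as a covariate the receptor counts were 8 higher and 1 lower, and the median receptor difference was 0.11. The share of all probe sets called under that model is not given here, so these counts have no background to be set against.

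Sequence upstream of the genes was searched for short motifs of factors known at receptor promoters, both strands, in the 250 bases before each RefSeq gene start. The O/E-like motif CCCNNGGG was found in 1 of 92 member windows (1.09%), against 2.75% of 944 receptor windows and 11.8% of 32851 windows of all genes. The homeodomain-like motif TAATTA was found in 23.9% of member windows, 18.1% of receptor windows and 4.84% of all windows, and TAATGA, which shares its first letters, in 25%, 25.3% and 8.59%. Most of these gene models begin at the start codon (61 of 91 genes), where the window may hold no promoter, and in the 31 windows with an earlier start the shares were 3.23%, 25.8% and 32.3%. The single CCCNNGGG window is that of Olfr983, a called receptor. Olfr983 is also the only called receptor whose gene model begins before the start codon, so the match says nothing about called receptors as a group. Its 250 bases before the gene start (chr9:40093559-40093808, minus strand, RefSeq on GRCm38.p6) are printed with both matches, 135 and 71 bases before the start, in capitals.
Olfr983: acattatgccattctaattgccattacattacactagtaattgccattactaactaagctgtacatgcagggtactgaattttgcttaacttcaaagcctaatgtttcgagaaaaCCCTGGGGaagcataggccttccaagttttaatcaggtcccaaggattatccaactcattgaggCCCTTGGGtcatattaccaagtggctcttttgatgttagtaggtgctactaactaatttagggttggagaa
A match of letters is a description of the window and not a site of binding.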

How the data were processed

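Log2 signals of 35556 probe sets were deposited for 12 Mouse Gene 1.0 ST arrays of whole MOE. To make them, the authors screened for outlier arrays, summarised probes by IterPLIER and applied sketch-quantile normalisation in Affymetrix Expression Console, of versions not given in the sources used here. A change shared by most transcripts is removed by such normalisation.

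Groups came from the sample titles. The 6612 control probe sets were left out, and names came from the platform annotation. With R 4.3.3 and limma 3.58.1, lmFit and eBayes were run with genotype as the single term on 28151 probe sets, those whose log2 signal averaged above 5. A call is an unadjusted two-sided p under 0.05, with Benjamini-Hochberg adjustment over all 28151. Named receptors carry an exact two-sided permutation p over the 924 choices of 6 of 12 arrays, whose smallest value is 0.0022. The model was tested on simulated data. The number of arrays limits the precision.

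The members, marker lists, alternatives and naming rule were chosen with earlier results of these data known. The rule named every called member, Olfr867, the 5 brightest and 3 dimmest tested, the 2 of widest spread and the 2 of largest difference in each direction. Receptors shown for their family, sequence or place beside these were named after their values were seen. Sequences, gene order and MOR names are from RefSeq (GRCm38.p6); the array annotation names no build. Pairs of like sequence were to be chosen by protein identity, but coding starts were compared instead, as proteins were not used here. Alternatives covered the filter, a floor, normalisation, covariates, array weights, moderation, exact tests, averaging by symbol, replicate block and arrays left out.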

Additional observations from a re-analysis of the deposited data

Results flagged for a closer look

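In 48 groups of 6 arrays, those of the named receptors and of the means over receptor lists, 4 held an array set apart from the rest by more than Dixon's 95% critical value, and chance flags about 1 in 20 groups. Olfr851 read 4.0071 in H2be-KO replicate 2 and 6.02 to 7.03 in the other H2be-KO arrays. Olfr898 read 9.0596 in WT replicate 2 and 8.42 to 8.58 in the others. Olfr968 read 7.4801 in WT replicate 4 against 8.01 to 8.14, and Olfr974 read 6.1124 in WT replicate 4 against 6.54 to 6.76. WT replicate 4 also had the lowest mean over all chromosome 9 receptors. Without WT replicate 4, Olfr968 and Olfr974 were still called.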

How the results depend on the processing

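The median difference of the chromosome 9 receptors, 0.13 as reported, stayed positive in every alternative, from 0.079 with array weights to 0.177. The number of receptors higher was 5 to 19 and the number lower 1 to 2 with each array left out in turn, while the share of all probe sets called higher ran from 1.82% to 8.05%. The number lower was 2 without WT replicate 6 (5.51% of all). It was also 2 with array weights (4.99% of all) and with no filter on signal (1.74%), and the weights gave 10 higher (9.57%). Under the replicate block, 17 were higher (7.24% of all). Same-numbered arrays correlated at 0.025 to 0.592 in their deviations from the group means, over 0.1 in 4 of 6, short of the rule for pairs that every one exceed 0.1. As a hint from the data that numbers may mark something shared, 8 of 12 arrays correlated best with their own number. Olfr835, uncalled as reported, passed under that block, without WT replicate 2 and without H2be-KO replicate 4.

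Of the named receptors, Olfr974, Olfr919, Olfr867 and Olfr982 kept their calls in all 25 alternatives, while Olfr849 lost its call in 8, Olfr935 and Olfr983 in 6 each, Olfr963 in 3 and Olfr968 in 2. The direction turned only for receptors that were uncalled and dim or widely spread. Olfr851 read 0.105 with a floor at 5, 0.0923 with array weights, and -0.271 to 0.334 with single arrays left out. Olfr857 read 0.0628 with the floor, 0.0027 without both Amelx-high arrays, and -0.125 to 0.213 with single arrays left out. Olfr877 read -0.433 to 0.0369 with single arrays left out, above 0 without H2be-KO replicate 2 or WT replicate 3. The causes were not tested. Signals near 5 limit what can be said of the dimmest receptors.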
